A study of Saccharomyces cerevisiae with 6 samples.

Results

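The 10 genes described here encode some of the glutaredoxins, thioredoxins and enzymes of both systems in budding yeast, Saccharomyces cerevisiae. They are GRX1 to GRX5, TRX1, TRX2, TRR1, GSH1 and GLR1. They were taken by gene symbol from the array annotation, with the brightest probe set (the group of probes that reads a transcript) kept for each gene. Every one of the 10 had only 1 probe set, so this choice decided nothing, and all 10 were found among the 5449 genes measured. The probe sets were selected on mean intensity over the 6 arrays, and the genes, with the pair GRX4 and GRX3, were chosen with the strain differences given below already known. Their changes, calls and adjusted p-values are therefore a description, and they are not independent support for each other.

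Total RNA was measured on 6 single-channel arrays to find genes whose mRNA level is affected by a substitution in histone H2B, one of the core proteins around which DNA is wound. The wild-type group holds 3 arrays of strain PY014, which carries wild-type histone H2B. The mutant group holds 3 arrays of strain WY317, whose H2B carries K111A, the exchange of a lysine for an alanine. Both strains were harvested in mid-log growth in YPD, a rich medium with glucose, and the labels name no other treatment. Samples are numbered within each strain, with no word on whether they were separate cultures or clones, so a p-value here covers only the variation among these arrays, part of which may be technical. Which H2B gene copy carried the change is not given in the sources used here.

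Glutaredoxins and thioredoxins are small proteins that reduce disulfide bonds in other proteins. Thioredoxins are recharged with electrons from NADPH by thioredoxin reductase, and glutaredoxins by glutathione, a cysteine-containing tripeptide that glutathione reductase keeps in its reduced form. In yeast, Grx1 and Grx2 are dithiol enzymes of this classical kind. Grx3, Grx4 and Grx5 are monothiol glutaredoxins that bind iron-sulfur clusters: Grx3 and Grx4 in the cytosol and nucleus, where they restrain the iron regulator Aft1, and Grx5 in mitochondria, where iron-sulfur clusters are made. Several genes of both systems, among them TRX2, TRR1, GSH1 and GLR1, are known targets of Yap1, the transcription factor of the oxidative stress response.

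Intensities are in linear array units as deposited, and 99% of the values of fission yeast probe sets, which serve as background on this array, lay at or under 3.7. All 10 genes lay above that level on all 6 arrays. The 8 fission yeast probe sets that carry the same names in lower case read between 0.1 and 2.7. Intensities of different probe sets do not rank the mRNAs of different genes, so levels are compared only within a gene. Log2 changes are mutant minus wild type on log2(intensity + 32), a scale that understates changes of dim genes. Fold and percent differences between the strains compare mean intensities without that offset. A gene is said to rise or fall where its Benjamini-Hochberg adjusted p in limma, over all genes, was under 0.05.

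In the mutant, 4 of the 10 genes fell (GRX4, TRX1, TRR1 and GSH1), 1 rose (TRX2) and 5 did not pass the test (GRX1, GRX2, GRX3, GRX5 and GLR1). Over all 5449 genes, 14.5% passed, with 6.92% higher and 7.62% lower in the mutant. GRX4 had by far the largest change of the 10. The other 4 log2 changes were close in size to the median absolute log2 change of all genes that passed, 0.19. The median log2 change of the 10 genes was -0.01, against -0.0005 over all genes. The arrays of the strains did not overlap for 6 of the 10 genes, against 36.7% of all genes.

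**Figure D1:**
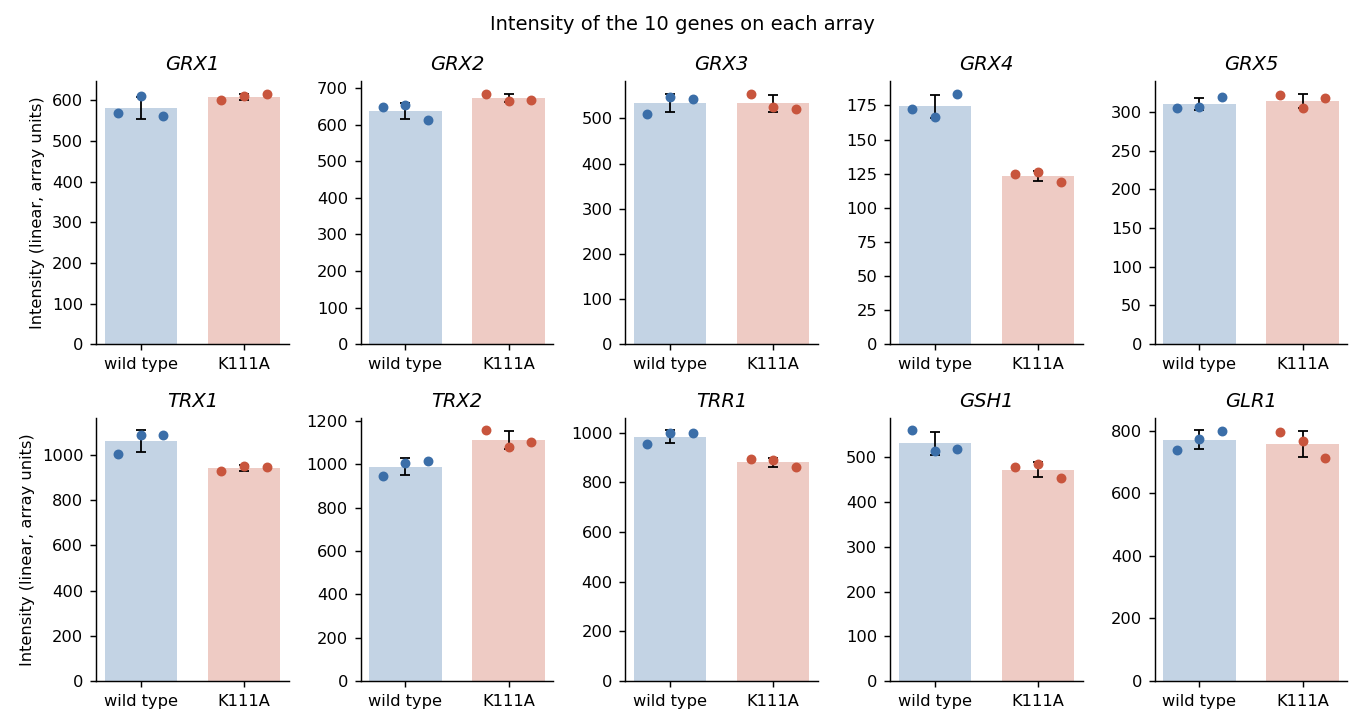
Intensity (linear, array units, axes from 0) of the 10 genes on each of the 6 arrays. Points are arrays, bars are means and error bars are SD over 3 arrays per strain. GRX4 falls from 174 to 123 on average, TRX1 and TRX2 move in opposite directions, and GRX1, GRX3, GRX5 and GLR1 overlap between the strains.

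GRX4 (YER174C) encodes a monothiol glutaredoxin of the nucleus and cytosol. Its intensity was 172.4, 166.6 and 183.7 on wild-type arrays 1 to 3, and 124.9, 126.2 and 119.1 on mutant arrays 1 to 3. All 3 mutant arrays were lower than every wild-type array, and the gap between the nearest arrays, 40.4, was larger than the spread within either strain. The mean fell from 174 ± 8.70 to 123 ± 3.78 (SD, n = 3 each), a level 29.2% lower. The log2 change was -0.41 (95% interval -0.50 to -0.31), with an adjusted p of 0.00162 in limma. Only 15 of the 5449 genes had a more negative log2 change, so GRX4 stood at rank 16 among all falls on the offset scale. That scale understates changes of dim genes, and no rank was taken without the offset. REG2 (mean 32.9 in wild type, 18.9 in the mutant) and DAL80 (37.2 and 22.7) ranked lower but fell by a larger fraction. The GRX4 call held without any 1 of the 6 arrays, with adjusted p in limma of at most 0.0118.

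GRX3 (YDR098C), the paralogue and functional partner of GRX4, showed no such difference. It read 510.3, 547.2 and 543.5 in wild type and 555, 525.9 and 519.8 in the mutant, so the ranges of the strains overlapped for the most part. Mean intensity was 534 ± 20.3 and 534 ± 18.8 (SD, n = 3 each). The log2 change was -0.0002, and its 95% interval of -0.09 to 0.09 does not reach the interval of GRX4. A change of GRX3 within that interval cannot be told from none with these arrays.

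The log2 difference GRX4 minus GRX3 was taken within each array. It was -1.41, -1.54 and -1.42 on the wild-type arrays and -1.90, -1.82 and -1.87 on the mutant arrays. Every mutant array lay under every wild-type array. The mean went from -1.46 ± 0.08 to -1.86 ± 0.04 (SD, n = 3 each), a difference of -0.41, more than the SD of either strain. The pair was named with results known, so no test is given, and the value shows only that the 2 genes changed unequally.

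**Figure D2:**
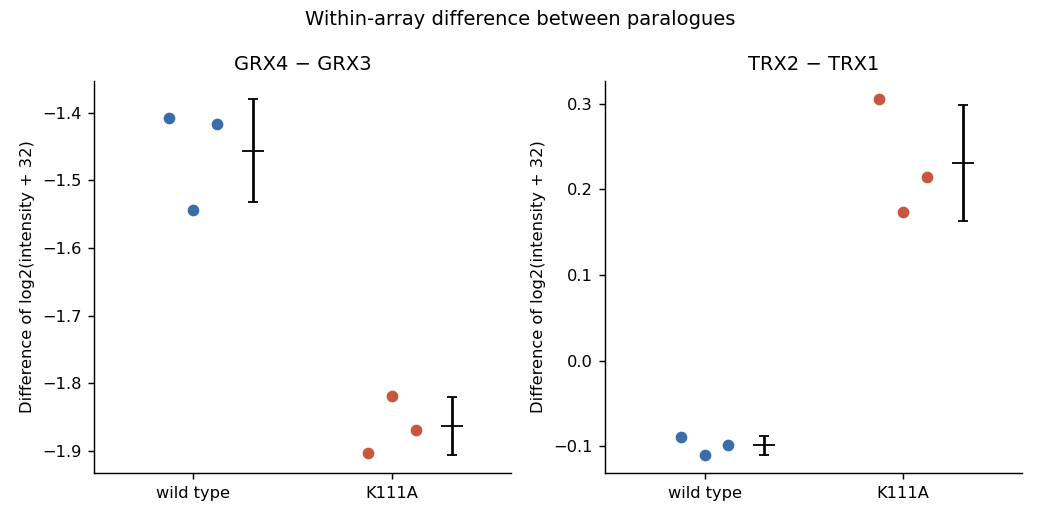
Difference of log2(intensity + 32) between paralogues within each array, GRX4 minus GRX3 and TRX2 minus TRX1. Points are arrays and horizontal marks with bars are mean ± SD over 3 arrays per strain; the vertical axes do not start at 0. GRX4 minus GRX3 is lower in the mutant (-1.46 to -1.86) and TRX2 minus TRX1 is higher (-0.10 to 0.23).

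The other 3 glutaredoxin genes did not pass the test. GRX1 (YCL035C), a cytosolic dithiol glutaredoxin, read 569.1, 611.7 and 561.4 in wild type and 599.7, 611.2 and 615.1 in the mutant. Wild-type array 2 lay among the mutant arrays, so the strains overlapped. Its log2 change was 0.07 (95% interval -0.03 to 0.16, limma adjusted p = 0.297).

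GRX2 (YDR513W), the dithiol paralogue of GRX1, read 649.5, 652.9 and 613.1 in wild type and 685.2, 666 and 666.4 in the mutant. All mutant arrays were the higher ones, by at least 13.1 units, but the spread within wild type was larger than that gap. The log2 change was 0.07 (95% interval -0.01 to 0.16, limma adjusted p = 0.221). GRX5 (YPL059W), the mitochondrial monothiol glutaredoxin, had mean intensities of 310 ± 8.16 and 315 ± 9.01 (SD, n = 3 each). Its arrays ran from 304.9 to 319.8 in wild type and from 304.6 to 321.9 in the mutant, nearly the same range, and its log2 change was 0.02 (95% interval -0.06 to 0.10).

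The thioredoxin genes TRX1 and TRX2, which encode closely related cytosolic thioredoxins, moved in opposite directions. TRX1 (YLR043C) read 1006.5, 1090.4 and 1089.4 on the wild-type arrays and 930.8, 953.6 and 946 on the mutant arrays. The groups did not overlap, and wild-type array 1 was the one nearest to the mutant, with a gap of 52.9 units against a range of 83.9 within wild type. The mean fell from 1062 ± 48.2 to 943 ± 11.6 (SD, n = 3 each), or 11.2% lower, with a log2 change of -0.16 (95% interval -0.26 to -0.07, limma adjusted p = 0.0296). TRX2 (YGR209C) read 944.6, 1007.9 and 1015.8 on the wild-type arrays and 1158.1, 1079.5 and 1102.9 on the mutant arrays. Here every mutant array was the higher, with a gap of 63.7 units, less than the range within either strain (71.2 and 78.6). The mean rose from 989 ± 39.0 to 1114 ± 40.4 (SD, n = 3 each), or 12.5% higher, with a log2 change of 0.17 (95% interval 0.07 to 0.26, limma adjusted p = 0.0340).

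Within arrays, the log2 difference TRX2 minus TRX1 was -0.09, -0.11 and -0.10 in wild type and 0.31, 0.17 and 0.21 in the mutant. This pair was singled out after its values were seen and was not tested. Its mean went from -0.10 ± 0.01 to 0.23 ± 0.07 (SD, n = 3 each), so the genes changed unequally on every mutant array. The probe sets of all 10 genes carry the plain suffix of sets not marked as shared between genes. Whether a paralogue's transcript adds to a signal was not tested.

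TRR1 (YDR353W) encodes the cytosolic thioredoxin reductase that recharges Trx1 and Trx2. It read 952.8, 997.6 and 998.9 in wild type and 894.6, 887.9 and 860 in the mutant, and all mutant arrays were lower, with a gap of 58.2 units. The mean fell from 983 ± 26.2 to 881 ± 18.4 (SD, n = 3 each), or 10.4% lower. The log2 change was -0.15 (95% interval -0.23 to -0.07, limma adjusted p = 0.0262).

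GSH1 (YJL101C) encodes gamma-glutamylcysteine synthetase, which carries out the first and rate-limiting step of glutathione synthesis. Its intensities were 560.7, 514.9 and 517.9 on the wild-type arrays and 479.5, 484.9 and 454.1 on the mutant arrays. The groups did not overlap, but the nearest arrays differed by only 30 units, against a range of 45.8 within wild type, and wild-type array 1 stood above the other two. The mean fell from 531 ± 25.6 to 473 ± 16.4 (SD, n = 3 each), or 11% lower, with a log2 change of -0.16 (95% interval -0.26 to -0.06, limma adjusted p = 0.0443). GLR1 (YPL091W), which encodes glutathione reductase, read 740.2, 773 and 801.3 in wild type and 795.2, 768.1 and 714 in the mutant. These values overlapped, with wild-type array 3 the highest and mutant array 3 the lowest, and the log2 change of -0.02 (95% interval -0.13 to 0.08) did not pass.

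**Figure D3:**
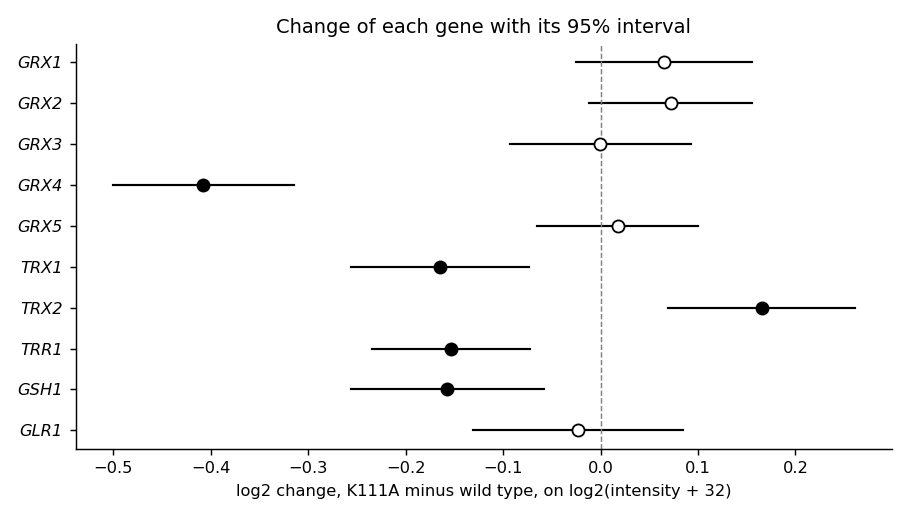
Log2 change of each of the 10 genes, mutant minus wild type, on log2(intensity + 32). Lines are 95% intervals from limma, filled points passed the adjusted p threshold of 0.05 over all 5449 genes, and open points did not. The interval of GRX4, -0.50 to -0.31, lies apart from those of the other 9 genes.

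Outside GRX4, these calls depended on the pseudocount and on having all 6 arrays. With 1 added to the intensities in place of 32, only GRX4 of the 10 genes passed. The call of TRX1 was lost without any array other than wild-type array 1 (limma adjusted p up to 0.0917), as was that of TRR1 (up to 0.0999). The TRX2 call was lost without any array other than wild-type array 3 (up to 0.105), and the GSH1 call without any 1 of the 6 (up to 0.151). The number of the 10 genes called was 3 without wild-type array 1, 2 without wild-type array 3 and 1 without any other array. The direction of all 5 changes was the same in each of these fits.

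Some control probe sets also differed between the strains. Over 24 probe sets for Bacillus transcripts, a usual spike-in for labelling, the wild-type arrays had a mean log2 value of 9.87 ± 0.05 and the mutant arrays one of 9.96 ± 0.02 (SD, n = 3 each), higher in the mutant for 20 and lower for 4. Over 17 probe sets for yeast ribosomal RNA it was 6.43 ± 0.12 and 6.69 ± 0.09, and all 17 were higher in the mutant. These 17 are named for only a few ribosomal RNAs, so they are not independent readings. The log2 differences between the strains were 0.09 on the Bacillus sets and 0.26 on the ribosomal RNA sets, beside absolute changes of 0.15 to 0.17 for TRX1, TRX2, TRR1 and GSH1. The part of whatever shifted these controls in the changes of the 10 genes was not tested. The arrays themselves were on 1 scale, with mean intensities from 146.4 to 148.2 over all their probe sets.

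Other genes of the same pathways were read from lists drawn up with the strain comparison's earlier results known. Of 130 measured genes on these lists, 14 fell and 6 rose, together 15.4%, close to the 14.5% of all genes. Their log2 changes ran from -0.34 to 0.28, and 55 of the 110 that did not pass were higher and 55 lower on average in the mutant. The remaining glutaredoxin, thioredoxin and reductase genes had 1 fall among 6 measured. It was TRR2, the mitochondrial thioredoxin reductase gene, from 152 ± 6.96 to 132 ± 3.80 (SD, n = 3 each, limma adjusted p = 0.0257). GSH2, which completes glutathione synthesis after Gsh1, read 354 ± 15.8 and 369 ± 9.53 and did not pass. GRX6, GRX7, GRX8 and TRX3 had log2 changes between -0.05 and 0.07 and did not pass either.

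Among 20 measured genes of glutathione transfer, transport and breakdown, 2 fell and 1 rose. GTT2, a glutathione S-transferase gene, fell from 314 ± 7.03 to 273 ± 1.19, and GLO4, a mitochondrial glyoxalase gene, from 42.1 ± 0.31 to 34.8 ± 0.98 (SD, n = 3 each). BPT1, a vacuolar transporter gene of the same family as the glutathione conjugate pump Ycf1, rose from 208 ± 16.5 to 252 ± 5.76. Of 8 glutathione and thioredoxin peroxidase genes, only PRX1, the mitochondrial peroxiredoxin gene, passed, rising from 376 ± 9.56 to 421 ± 5.92. None of the 7 genes for enzymes that draw on thioredoxin or glutaredoxin passed, and their log2 changes lay between -0.05 and 0.13. These include RNR1 to RNR4, of ribonucleotide reductase, and MET16, of sulfate assimilation.

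Since Grx3 and Grx4 act on Aft1, the iron genes were read beside GRX4. Of 25 measured genes of the Aft1 iron regulon, 4 fell and 1 rose, together 20% against 14.5% of all genes, and the median log2 change was -0.05. FTR1, the high-affinity iron permease gene, fell from 341 ± 8.79 to 302 ± 10.7, and FET3, its multicopper oxidase partner, from 475 ± 6.88 to 434 ± 5.56 (SD, n = 3 each); FET3 was named after its value was seen. The reductase genes FRE2 and FRE3 were 1.22-fold and 1.27-fold lower, both dim at 31.1 and 32.7 in wild type. VTH1 rose 1.15-fold. Of the 20 that did not pass, 8 had a mean log2 change above 0 and 12 below 0.

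Of 9 measured partners of Grx3 and Grx4 and iron regulators, DRE2, of cytosolic iron-sulfur assembly, passed. It fell from 291 ± 9.12 to 242 ± 15.5 (SD, n = 3 each, limma adjusted p = 0.0153). AFT1 itself read 128 ± 4.03 and 120 ± 2.82 and BOL2, which acts with Grx3 and Grx4 on Aft1, 541 ± 17.0 and 510 ± 13.1, neither past the test. In mitochondrial iron-sulfur assembly, where Grx5 acts, 2 of 15 genes fell: ISU2, a scaffold gene, 1.14-fold and ISA2, of late cluster assembly, 1.11-fold. The median of that list was 0.05.

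Of 21 measured genes on the list of Yap1, Skn7 and their targets outside the 10, 4 fell and none rose, together 19.0% against 14.5% of all genes, with a median log2 change of -0.06. AAD6 fell from 246 ± 16.04 to 188 ± 6.44 (SD, n = 3 each, limma adjusted p = 0.00502). It is a putative aryl-alcohol dehydrogenase gene of a family of near-identical copies. Its probe set carries the plain suffix of sets not marked as shared, and whether related copies add to its signal was not tested. FLR1, a drug exporter gene, was 1.12-fold lower, SKN7, the regulator that acts with Yap1, 1.10-fold, and GTT2 is also on this list. YAP1 read 223 ± 22.5 and 189 ± 10.1 and did not pass (limma adjusted p = 0.0709). Known Yap1 targets among the 10 genes did not share a direction: TRX2 rose, TRR1 and GSH1 fell, and GLR1 did not pass.

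In the NADPH supply list, 1 of 14 genes passed: SOL4, of the pentose phosphate pathway, which read 31.2 ± 4.17 and rose to 40.5 ± 0.76 (SD, n = 3 each). On the list of genes around cysteine and its regulators, 2 of 12 rose and 1 fell. MET28, a regulator of sulfur genes, rose from 31.6 ± 4.30 to 45.1 ± 6.56 and STR2, cystathionine gamma-synthase, which converts cysteine towards methionine, from 205 ± 14.5 to 244 ± 8.40. CYS3 and CYS4, which make cysteine from homocysteine, had log2 changes of -0.01 and 0.04 and did not pass. MET31, a DNA-binding regulator of the same pathway, fell from 112 ± 7.50 to 96.8 ± 2.25. Of the 20 list genes called, 19 lost the call in limma without at least 1 array and AAD6 did not. The count was 13, 12 and 8 without wild-type arrays 1, 2 and 3, and 3, 7 and 2 without mutant arrays 1, 2 and 3.

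**Figure D4:**
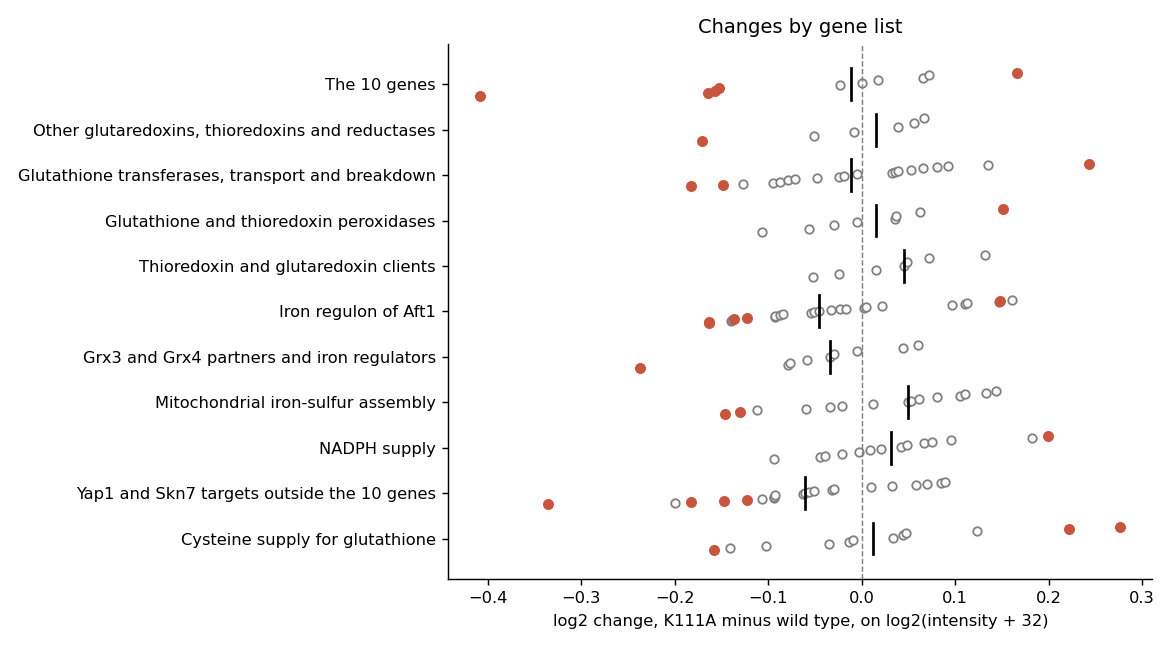
Log2 change, mutant minus wild type, on log2(intensity + 32), for the 10 genes and the 10 other lists. Each point is a gene, filled where it passed the adjusted p threshold of 0.05, and the black line is the list's median. GRX4 at -0.41 is the lowest point, AAD6 at -0.34 the next, and the list medians lie between -0.06 and 0.05.

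The genes whose pattern over the 6 arrays was closest to that of GRX4 were MIG3, SNO3, YOR338W, REG2 and DAL80. Likeness was measured as the root mean square difference of log2 deviations from each gene's own mean over the arrays, which was 0.04 for MIG3 and 0.06 for DAL80, against a median of 0.21 over 5295 genes above background. All 5 fell, MIG3 from 66.8 ± 7.51 to 42.6 ± 0.57 and YOR338W from 262 ± 12.1 to 201 ± 5.93 (SD, n = 3 each). MIG3 encodes a zinc-finger repressor, REG2 a regulatory subunit of the protein phosphatase Glc7, and DAL80 a repressor of nitrogen genes. For GSH1 the closest were GID7, YAL037W, GDH2, PRP19 and YPR071W, of which GID7, YAL037W and GDH2 fell. The genes were picked for following GRX4 or GSH1 over these same 6 arrays, so that they share a direction follows from the choice.

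The chromosomal neighbours of the 10 genes, taken from the gene order of the RefSeq R64 table and added after the values were seen, included 16 measured genes of 20. Of these 3 fell and 1 rose, together 25%, against 14.5% of all genes. Next to GRX4, TMT1 rose from 104 ± 7.89 to 131 ± 9.62 (SD, n = 3 each, limma adjusted p = 0.0190), opposite to GRX4, and RAD24 on the other side read 82.5 ± 5.49 and 90.7 ± 4.05 and did not pass. The 3 that fell were GFD2 next to GRX1, YDR514C next to GRX2 and YGR210C next to TRX2, none beside a gene that fell.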

How the data were processed

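RNA of 3 wild-type and 3 H2B K111A samples was labelled with biotin and read on single-channel arrays, per the labels' protocols. The deposited table holds linear intensity values for 10928 probe sets, already on a common scale between arrays. How the authors summarised, background-corrected and scaled them is not given in the sources used. The array annotation and the RefSeq R64 gene table named 5498 probe sets as budding yeast genes. The brightest probe set was kept for the 47 genes with several, which left 5449 genes.

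The log2(intensity + 32) values were tested between the strains with limma 3.58.1 (lmFit, eBayes; R 4.3.3). Tests were two-sided, and p-values were adjusted over the 5449 genes by the Benjamini-Hochberg method, with calls at 0.05. Array medians lay between 7.56 and 7.59, so nothing further was normalized. The number of arrays limits the precision. The 10 genes and the lists beside them were chosen with earlier results of these data known. Genes named are the 10, up to 4 passing genes of each list with the largest changes, genes of lists with at most 10 measured members, and the 5 genes nearest to GRX4 and to GSH1. Others (FET3, YAP1, CYS3, CYS4 and chromosomal neighbours) were named after their values were seen. Alternatives covered leaving out each array, array weights, the variance prior, the replicate number as a block, probe sets, dim genes, pseudocount and scaling. Figures were drawn with matplotlib 3.10.9.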

Additional observations from a re-analysis of the deposited data

How the results depend on the processing

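The fall of GRX4 passed under all 15 alternatives, with log2 changes from -0.49 to -0.37 and limma adjusted p from 0.000924 to 0.0118, and GRX1, GRX2, GRX3, GRX5 and GLR1 passed under none. The other calls were less stable. With a pseudocount of 1 in place of 32, 489 of all genes passed, 1 of the 10 and 10 of the pathway list genes; the log2 changes of TRX1, TRX2, TRR1 and GSH1 were -0.17, 0.17, -0.16 and -0.17 without passing, and GRX4 minus GRX3 differed by -0.49 between the strains. With the replicate block, 346 of all genes passed, 1 of the 10 and 4 of the list genes, with TRX1 at -0.16, TRX2 at 0.17, TRR1 at -0.15 and GSH1 at -0.16 not passing. Same-numbered samples of the strains did not deviate together (correlations across genes of -0.23, -0.06 and -0.17), so the numbers are not taken to pair them. Between differently numbered samples the correlations ran from -0.04 to 0.26, the highest for wild-type array 1 with mutant array 3. GSH1 also did not pass with quantile normalization (-0.14) or a pseudocount of 16 (-0.16). Leaving out 1 array gave 213 to 559 of all genes, 1 to 3 of the 10 and 2 to 13 of the list genes, with changes of -0.20 to -0.15 for TRX1, 0.13 to 0.19 for TRX2, -0.17 to -0.14 for TRR1 and -0.18 to -0.12 for GSH1. Those fits use fewer samples; for the other alternatives the cause was not tested. The changes of GRX4, TRX1, TRX2, TRR1 and GSH1 kept their direction under all 15 alternatives. Those of GRX1, GRX2 and GRX5 also kept theirs, without passing. The changes of GRX3 (-0.03 to 0.02) and GLR1 (-0.06 to 0.02) took both signs.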
